A study of Neurospora crassa with 3 samples.

Results

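Among 9730 genes counted in polyadenylated RNA of the filamentous fungus Neurospora crassa, 30 were at a low level in the libraries labelled set-2 H3G34R and at a higher level in every library of the other genotypes. They were chosen on the measured values, by a rule on CPM, the sense reads of a gene per 1e6 sense reads in genes. The lowest of the 4 values in H3G34R and set-2 ash1(Y888F), plus 1 CPM, had to be at least 3 times the higher of the values labelled set-2 H3G34R, plus 1 CPM, and that lowest value had to reach 5 CPM. The rule leaves out 4 genes by name, of which 3 would have met it. The same rule turned to the other genotypes, with no gene left out, finds 149 genes low only in H3G34R and 34 low only in set-2 ash1(Y888F).

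The series holds 3 genotypes with 2 stranded libraries each, from germinated conidia described as mycelia and cultured with shaking in liquid Vogel's medium at 32 °C for 18 h. Strains N5247 and N5248 carry H3G34R, an arginine in place of a glycine in the tail of histone H3. Strains N6266 and N6267 carry ash1(Y888F), an amino acid change that inactivates the enzyme ASH1, together with a set-2 deletion per the series' design text. Both remaining libraries come from a single strain, N6777, described as joining H3G34R to the set-2 deletion. Wild type was read only through the comparisons that the authors deposited.

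SET-2 and ASH1 are the methyltransferases that place methyl groups on lysine 36 of histone H3 in this fungus. SET-2 travels with elongating RNA polymerase and marks transcribed genes, and ASH1 marks genes that are transcribed little, part of which also carry the silencing mark on lysine 27. The glycine changed in H3G34R lies beside lysine 36. Only 1 of the 30 genes has a symbol in the reference gene table, pmg, a general amino acid permease of the plasma membrane; the other 29 are given by their locus numbers, with no role.

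Each library had between 7.52 and 9.83 M (1e6) sense reads in genes, and antisense reads were 3.08% to 3.78% of the reads in genes on either strand. The libraries labelled set-2 H3G34R had 1.31% and 1.61% unmapped reads, against 3.03% to 4.23% in the others. The set-2 gene itself had 299 and 269 reads in them, 322 and 252 in H3G34R and 171 and 123 in set-2 ash1(Y888F), which goes against a deletion of the whole gene, so these genotypes are named here by their labels. Marker genes of conidia and aerial hyphae, of which none of 9 was at 0, summed to 4563 and 6452 CPM in the libraries labelled set-2 H3G34R, 1023 and 1097 CPM in H3G34R and 664.6 and 1530 CPM in set-2 ash1(Y888F). The summed level of 4 markers of sexual tissue was 458.1 and 492.6 CPM, against 233 and 251.7 CPM and 142 and 231.5 CPM in the same order. Such sums follow their most abundant genes. A longer list of sexual development, which holds these 4, had 14 tested genes. Of these 3 were higher than in H3G34R and 6 lower (edgeR), where 30.8% and 30.9% of all genes tested were. The list had a median log2 fold change of -0.39 against H3G34R. Against set-2 ash1(Y888F) its median was 0.62 and 7 were higher, where 18.3% of all genes tested were. The part of these markers, and of mapping, in the levels below was not tested, and in bulk RNA fewer cells of a type and less RNA per cell cannot be told apart.

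NCU04697 stood far from the rest. Its sense level was 1822 and 2064 CPM in N5247 and N5248, 1050 and 1572 CPM in N6266 and N6267, and 3.40 and 2.44 CPM in the N6777 libraries, which is 32 and 21 reads. The lowest of the 4 high values was 239 times the higher low one after 1 CPM was added to each, and the next gene in this order, pmg, reached 6.85. NCU04697 was thus among the most abundant of the 30 in the other genotypes and close to undetected in this one, with means of 1943 ± 171, 1311 ± 369 and 2.92 ± 0.681 CPM (SD, n = 2 in each).

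pmg had 193.6 and 167.5 CPM in H3G34R, 153.3 and 40.8 CPM in set-2 ash1(Y888F) and 4.78 and 5.10 CPM in the libraries labelled set-2 H3G34R. The 2 ash1(Y888F) strains were far apart for this permease, and both were above the low pair. NCU09497 and NCU09498 lie next to each other on chromosome III. NCU09497 had 376.8 and 399.2 CPM, then 226.9 and 95.5 CPM, and 16.8 and 8.93 CPM in the low pair. NCU09498 had 59.3 and 40.1 CPM, then 32.3 and 16.8 CPM, and 1.81 and 1.97 CPM. Both neighbours had their highest values in H3G34R, and strain N6267 was the lower of the ash1(Y888F) strains in each. The difference between H3G34R and set-2 ash1(Y888F) did not pass the edgeR test in NCU09497 (adjusted p = 0.0882) or NCU09498 (adjusted p = 0.103).

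Other genes near the top of the order ran from low to moderate levels. NCU04583 had 148.1 and 91.8 CPM, then 169 and 85.6 CPM, and 12.9 and 9.28 CPM in the low pair. NCU08863 had 18 and 23.9 CPM, then 12 and 15.3 CPM, and 0.425 and 1.28 CPM, or 4 and 11 reads. NCU04292 had 277.8 and 239.4 CPM, then 357.6 and 186.7 CPM, and 28.2 and 36.9 CPM. In these genes the values of H3G34R and set-2 ash1(Y888F) overlapped or lay close together, and the low pair lay apart from both.

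Not all 30 were near silence where they were low. NCU16673 had 1560 and 2099 CPM in H3G34R, 2114 and 2248 CPM in set-2 ash1(Y888F), and still 403.7 and 494.6 CPM in the libraries labelled set-2 H3G34R. NCU08183 kept 136.4 and 134.8 CPM there, against 558.3 and 535.4 CPM and 707.9 and 551.9 CPM. For NCU04303 the low values were 128.9 and 109 CPM, beneath 652 and 610 CPM and 570.5 and 397.9 CPM. At the other extreme NCU09852 had 3 and 10 reads, and NCU07149 had 10 and 6 reads, so their low levels rest on few reads.

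The 30 means in the libraries labelled set-2 H3G34R ran from 0.739 to 449.1 CPM. H3G34R exceeded them by 3.49-fold (NCU06301) to 666-fold (NCU04697), and set-2 ash1(Y888F) by 3.84-fold (NCU04656) to 449.4-fold (NCU04697). All 30 passed the edgeR quasi-likelihood test as lower than both other genotypes, where 12.2% of the 8554 genes tested did; the rule used these values, so nothing is read from that count. Just inside the threshold lay NCU06301 at a ratio of 3.02, NCU06376 at 3.03, NCU04303 at 3.07 and both NCU06425 and NCU05569 at 3.09. Just outside lay NCU04699 at 2.97, mig-4 at 2.97, NCU05319 at 2.96, NCU03684 at 2.95 and NCU08439 at 2.94, so the list has no natural edge. Without library N6267 the rule finds 62 genes, and without the first or second N6777 library 47 or 49. Leaving out a library cannot remove a gene under this rule, so these counts do not show that members hold.

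**Figure D1:**
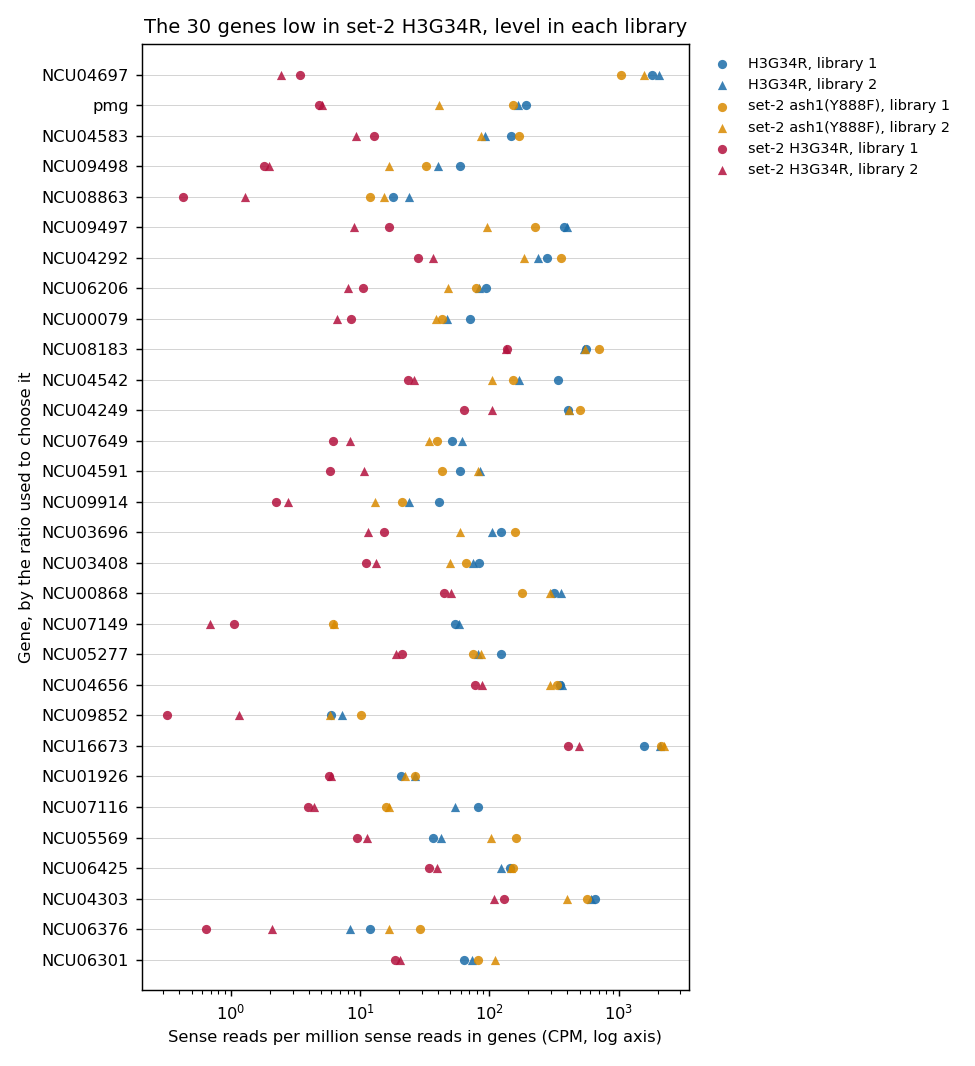
Sense level (CPM, log axis) of each of the 30 genes in each of the 6 libraries, ordered from the top by the ratio that chose them. The libraries labelled set-2 H3G34R lie to the left in every row by construction; NCU04697 has the widest gap and NCU16673 the highest of the low values.

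How far the genes moved between libraries of a genotype differed. In H3G34R none of the 30 was 2-fold apart between strains, where 0.526% of genes with 5 CPM or more in both libraries were. Between the ash1(Y888F) strains 3 of 30 were, against 4.19% of genes: pmg, NCU09497 and NCU03696, each lower in N6267. NCU03696 had 159 and 58.9 CPM in these strains. Of the 21 genes with at least 5 CPM in both N6777 libraries, none was 2-fold apart, against 0.401% of genes. The median absolute log2 difference between libraries of a genotype was 0.23, 0.53 and 0.27 over these genes in the same order of genotypes, and 0.13, 0.21 and 0.14 over all genes at that level.

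The rule requires high values in both H3G34R and set-2 ash1(Y888F) but does not compare them. In that comparison 5 of the 30 genes were higher in set-2 ash1(Y888F) and 2 were lower, in the edgeR quasi-likelihood test, with p-values adjusted by Benjamini-Hochberg over all genes. Over all genes tested 26.4% were called higher and 25.4% lower and neither count of members exceeded its background. Their median log2 fold change was -0.08, and that of all genes tested 0.004. The count of lower genes depends on N6266: without it 10 are called, and without N6267, 4; the count of higher genes is 8 without N6267, and 1 without N5247.

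NCU05569 was the gene with the largest rise, with 36.9 and 42.1 CPM in H3G34R and 160.3 and 102.4 CPM in set-2 ash1(Y888F). Its log2 fold change was 2.03 (SE 0.235, adjusted p = 7.33e-04), and the strains of the genotypes did not overlap. NCU07149, on chromosome V, went the other way, from 54.2 and 58.6 CPM in H3G34R to 6.17 and 6.25 CPM, a log2 fold change of -2.89 (SE 0.181, adjusted p = 8.31e-05). With 1.06 and 0.696 CPM in the libraries labelled set-2 H3G34R, it had 3 levels that did not overlap. NCU07116 followed the same order, with 81.4 and 53.8 CPM, then 15.8 and 16.6 CPM, and 3.93 and 4.41 CPM. Its log2 fold change between the first pair of genotypes was -1.76 (SE 0.21, adjusted p = 8.24e-04).

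The remaining calls were smaller. NCU06376 rose by 1.47 on the log2 scale (adjusted p = 0.0208), NCU06301 by 0.79 (adjusted p = 0.00778), NCU08183 by 0.50 (adjusted p = 0.0268) and NCU06425 by 0.46 (adjusted p = 0.0193). Each of these 4 calls was lost in the edgeR test without N5247, and none of them passed when the change had to exceed 1.5-fold. Fitted with only the 4 libraries of these genotypes, the call of NCU08183 was lost as well (adjusted p = 0.0629, edgeR). That fit called 4 members higher and 2 lower. For the other 23 genes, NCU04697 and pmg among them, the difference between these genotypes did not pass the test with all 6 libraries. pmg had a log2 fold change of -0.59 with an SE of 0.512.

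**Figure D2:**
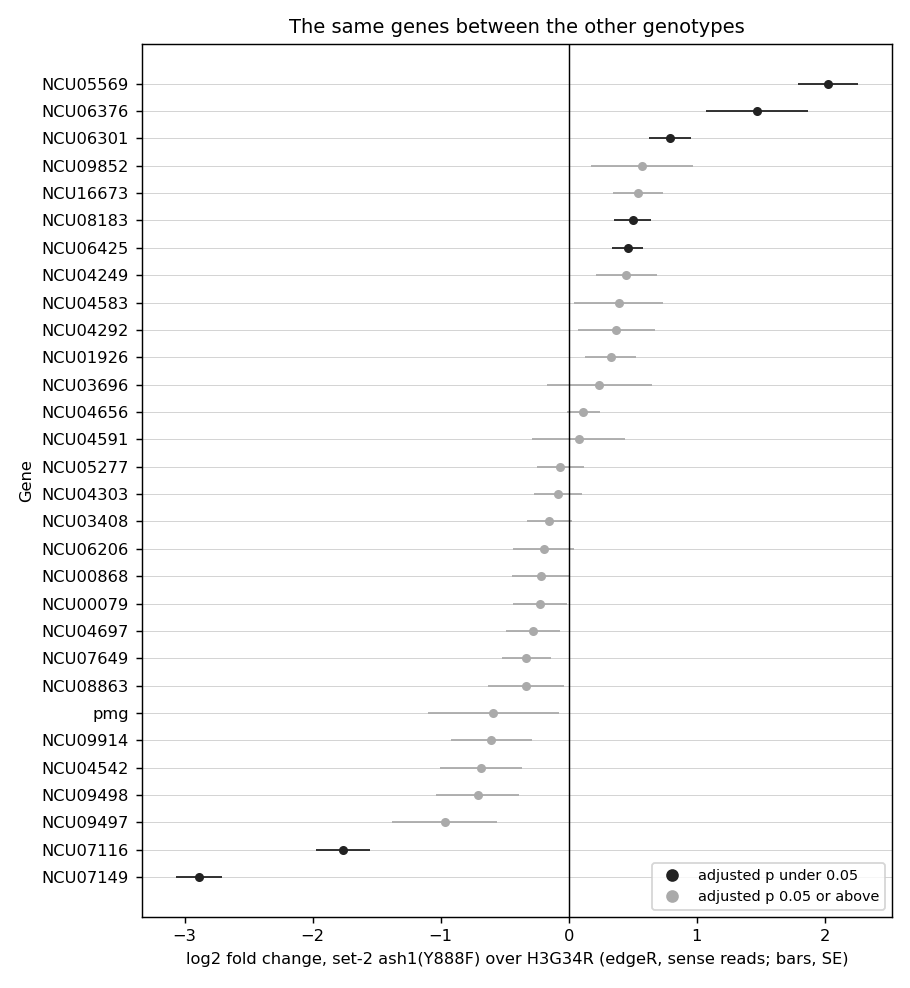
Log2 fold change of set-2 ash1(Y888F) over H3G34R for the 30 genes on sense reads, fitted with edgeR, with SE bars. The 7 genes in black passed the test; NCU05569 is the farthest to the right and NCU07149 the farthest to the left.

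Wild type was not part of the rule, but the mutant libraries in the authors' deposited tables are the ones it used. Genes chosen as high in H3G34R and low in set-2 H3G34R lean upwards in the table of the former and downwards in that of the latter by construction, so the counts below describe the genes and nothing is read from them against the background. Of the 30 genes, 29 have values there; NCU00079 is listed at a mean of 0, and the reference gene NCU00078 overlaps it. In the authors' deposited table for H3G34R, 18 of 29 genes were higher than wild type (33.6% of genes) and 8 lower (30.9%). In their table for set-2 H3G34R, 4 were higher (24.9%) and 19 lower (26.4%). The median log2 fold change of the 29 in these deposited tables was 2.07 and -1.36, and over all genes 0.01 and -0.02.

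The 29 genes fell into different groups by these deposited values. NCU04697, NCU09498, NCU08863, NCU09914, NCU03408 and NCU04303 were above wild type in H3G34R and not called in set-2 H3G34R. For NCU04697 the authors' deposited table gives a log2 fold change over wild type of 9.97 in H3G34R and 0.55 (SE 0.638, adjusted p = 0.501) in set-2 H3G34R. The mean behind the latter is 24.1 normalised reads, so the gene was low in both groups of that comparison and its fold is poorly bounded. In NCU04303 the deposited values were 2.75 and 0.26, the latter with an SE of 0.143.

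In 4 genes the level was above wild type in both deposited tables, and less so in set-2 H3G34R. pmg had deposited log2 fold changes of 4.60 and 1.26. The latter counts both strands, and 74.2% of the reads of pmg in those libraries were antisense, so that a sense level above wild type is not shown for it. The other 3 were NCU04542 with 5.43 and 2.15, NCU08183 with 3.89 and 1.86, and NCU04292 with 3.97 and 0.88. In 8 genes the sign turned: NCU07149 had deposited values of 4.18 and -1.64, and NCU09497 of 3.83 and -0.98. The lower value of NCU07149 rests on a mean of 20.4 normalised reads (SE 0.731, adjusted p = 0.0488, the authors' DESeq2). The other 6 of that group were NCU04583, NCU03696, NCU00868, NCU05277, NCU07116 and NCU06376. The lower call of NCU06376 had an adjusted p of 0.0417 (the authors' DESeq2). Antisense reads were 68% of its reads in the libraries labelled set-2 H3G34R.

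For 8 more genes both deposited values were below wild type. NCU04591 had a log2 fold change of -1.92 in H3G34R and -4.69 in set-2 H3G34R in the authors' deposited tables, the lowest of the 29 in the latter. NCU04656 had -1.31 and -3.51, and NCU16673, the most abundant of the 30 in set-2 H3G34R, had -0.98 and -3.08. NCU06206, NCU04249, NCU01926, NCU05569 and NCU06425 make up the rest of the 8. NCU07649, NCU09852 and NCU06301 were not called in H3G34R and were lower in set-2 H3G34R, with deposited values of -3.22, -2.58 and -2.04.

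The authors' deposited table for set-2 ash1(Y888F) had 6 of 29 genes higher (10.8% of genes) and 2 lower (6.42%), but it rests on another wild-type level. The difference between its fold change and that of the H3G34R table was set against the direct ratio of the mutants' both-strand CPM, centred over genes with a mean of at least 50 in both tables. For NCU04542 the deposited values differed by -5.31 while the mutants differed by -0.99. For 16 of the 29 genes the wild type behind the set-2 ash1(Y888F) table was at least 2-fold higher than that behind the H3G34R table, and for 5 at least 2-fold lower; over all such genes 35.5% were at least 2-fold apart. Between the H3G34R and set-2 H3G34R tables none of the 29 was, with a median gap of 0.02, so these share their wild-type level and values in them are not independent. The deposited values also follow the column of both strands together. In the set-2 H3G34R table the sense column misses the implied level of pmg by 1.93, of NCU06206 by 2.83 and of NCU08863 by 2.50 on the log2 scale, so that their deposited values mix sense and antisense reads.

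**Figure D3:**
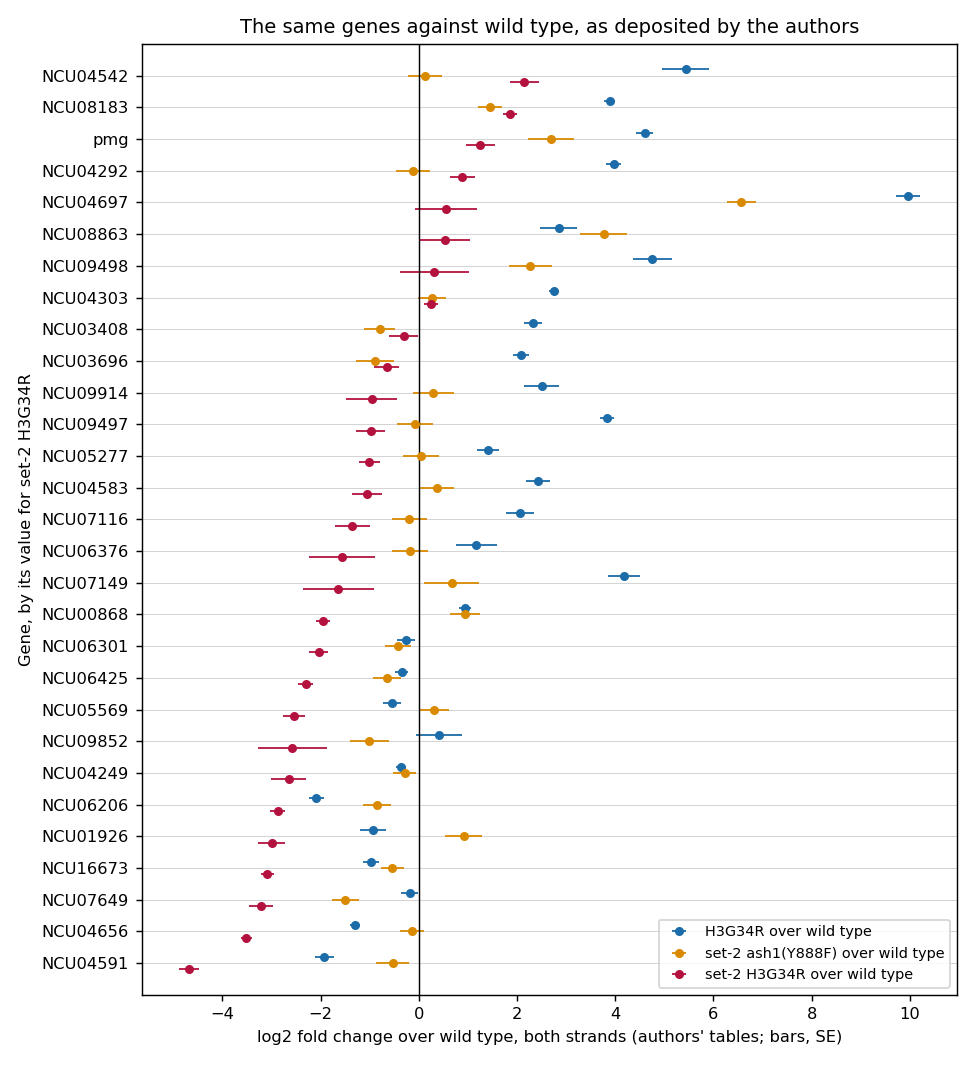
Log2 fold change over wild type of 29 of the 30 genes in the authors' deposited tables, with the deposited SE as bars, ordered by the value for set-2 H3G34R. Points for H3G34R lie to the right of those for set-2 H3G34R in every row. The rule favours that order by construction, though it used sense reads and the deposited values count both strands. The set-2 ash1(Y888F) points were made against a different wild-type level.

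Reads on the opposite strand of the genes were not used by the rule, and they did not fall with the sense reads in every gene. In the libraries labelled set-2 H3G34R, antisense reads outnumbered sense reads of pmg, NCU08863, NCU06206, NCU00079 and NCU06376 in both libraries; 7.02% of all genes with reads had that order. None of the 30 had that order in both H3G34R libraries (6.3% of genes) or in both set-2 ash1(Y888F) libraries (6.21% of genes). The rule set the sense reads low in the libraries labelled set-2 H3G34R and at 5 CPM or more in the others, so these counts are a description. Antisense reads were not used by it, but some may be sense reads counted on the wrong strand. Such reads would fall with the sense level that the rule chose, and their part was not tested. NCU00079 and NCU06376 overlap another gene of the reference table, which leaves 3 without an overlap. Antisense counts of 22 of the 30 genes passed the filter on low counts and were tested among 4299 genes.

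pmg had 13 and 10 antisense reads in H3G34R, 39 and 42 in set-2 ash1(Y888F) and 139 and 117 in the libraries labelled set-2 H3G34R, where its sense reads numbered 45 and 44. Antisense reads were 0.659%, 4.82% and 74.2% of its reads in the same order of genotypes. They were 3.61 higher on the log2 scale than in H3G34R (SE 0.302, adjusted p = 3.58e-09, edgeR) and 1.24 higher than in set-2 ash1(Y888F) (SE 0.25, adjusted p = 5.95e-04). All 3 genotypes were apart without overlap, in the reverse of the order of the sense level.

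NCU06206 had 147 and 222 antisense reads in H3G34R, 362 and 374 in set-2 ash1(Y888F) and 515 and 510 in the libraries labelled set-2 H3G34R, or 85.9% of its reads there. The rise over H3G34R was 1.63 on the log2 scale (SE 0.221, adjusted p = 4.18e-06), and set against set-2 ash1(Y888F) the value was 0.06 (adjusted p = 0.838). NCU03696 had 6 and 13, then 29 and 30, then 55 and 32 antisense reads, a rise of 2.32 over H3G34R (adjusted p = 1.23e-04). NCU04591 had 9 and 12, then 9 and 8, then 25 and 28; it rose by 1.48 over H3G34R (adjusted p = 0.0106) and by 1.22 over set-2 ash1(Y888F) (adjusted p = 0.0435). NCU08183 rose by 1.19 over H3G34R (adjusted p = 0.00107) and fell by 1.03 against set-2 ash1(Y888F) (adjusted p = 0.00191). With antisense reads scaled by their own TMM factors, the latter difference was -0.64 (adjusted p = 0.0448, edgeR). Without the first N6777 library it was -0.94 and no longer passed the test. Both calls of NCU04591 were lost with DESeq2 and when the second N6777 library was left out.

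With NCU00079 (198 and 230 antisense reads, against 60 and 77 in H3G34R) and NCU06376 (30 and 21 against 14 and 8, a call lost without either N6777 library), 7 of 22 genes had more antisense reads than in H3G34R, where 26.6% of genes tested did. NCU00079 overlaps NCU00078 and NCU06376 overlaps NCU06375, and 5 of the 7 genes overlap no other gene. The sense level of NCU00078 averaged 24.8 CPM in H3G34R, 56.6 CPM in set-2 ash1(Y888F) and 70 CPM in set-2 H3G34R. That of NCU06375 averaged 15.9, 16.8 and 27.7 CPM in the same order. How many antisense reads of the 2 members come from the overlapping genes was not tested. Another 8 of 22 had fewer antisense reads than in H3G34R, against 14.3% of genes. Against set-2 ash1(Y888F) 2 of 22 were higher (9.21% of genes) and 10 lower (28.2%). Sense reads counted on the wrong strand would be few in set-2 H3G34R by the rule, so nothing is read from the 8 and 10 lower. All genes tested had a median antisense log2 difference of 0.21 against H3G34R and -0.42 against set-2 ash1(Y888F), and the 22 had -0.35 and -0.85. In both comparisons the shift of all genes nearly vanished when antisense reads were scaled by their own TMM factors, to 0.04 and 0.00, with -0.42 and -0.28 for the 22.

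Genes whose antisense reads fell with the sense reads were led by NCU04697. It had 82 and 92 antisense reads in H3G34R, 69 and 84 in set-2 ash1(Y888F) and 1 and 0 in the libraries labelled set-2 H3G34R, and the antisense share of its reads was 0.463%, 0.735% and 1.85%. NCU16673 had 83 and 132, then 216 and 195, then 51 and 25, with antisense shares of 0.605%, 1.17% and 0.934%. NCU04292, NCU06425, NCU04303, NCU04249, NCU00868 and NCU04542 complete the 8, with log2 differences against H3G34R from -3.82 to -1.49. In H3G34R the antisense share of the 8 ran from 0.369% (NCU00868) to 0.895% (NCU04542). The part of sense reads counted on the wrong strand in such small shares was not tested. Without the first N6777 library the calls of NCU04249, NCU00868, NCU04542 and NCU06425 were lost, and without the second those of NCU00868, NCU04542 and NCU16673. Set against the sense reads of the same gene, edgeR called 0 of 22 lower (0 also at an unadjusted p under 0.05) and 13 of 22 higher. The rule chose low sense reads in these libraries, which by construction raises the values on that scale, so nothing is read from those counts.

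In set-2 ash1(Y888F), 13 of 22 genes had more antisense reads than in H3G34R, where 39.1% of genes tested did, and by edgeR 0 had fewer, beside 6.44% of genes (0 at an unadjusted p under 0.05, and 0 by DESeq2). With antisense TMM factors 6 were higher and 1 lower. The genes that the same rule finds low only in H3G34R were counted in the same way: of 89 tested, 10 had more antisense reads there than in both other genotypes and 25 had fewer, where 4.28% and 18% of all genes did. Of 14 tested among the genes low only in set-2 ash1(Y888F), edgeR called 0 higher there than in both others (0 at an unadjusted p under 0.05, and 0 by DESeq2) and 4 lower, where 16.3% and 1.54% of all genes were. The corresponding counts for the genes low in set-2 H3G34R were 2 of 22 (pmg and NCU04591) and 7 of 22, beside 6.72% and 8.89% of all genes. Sense reads counted on the wrong strand could add to the lower counts of each list, and their part was not tested.

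**Figure D4:**
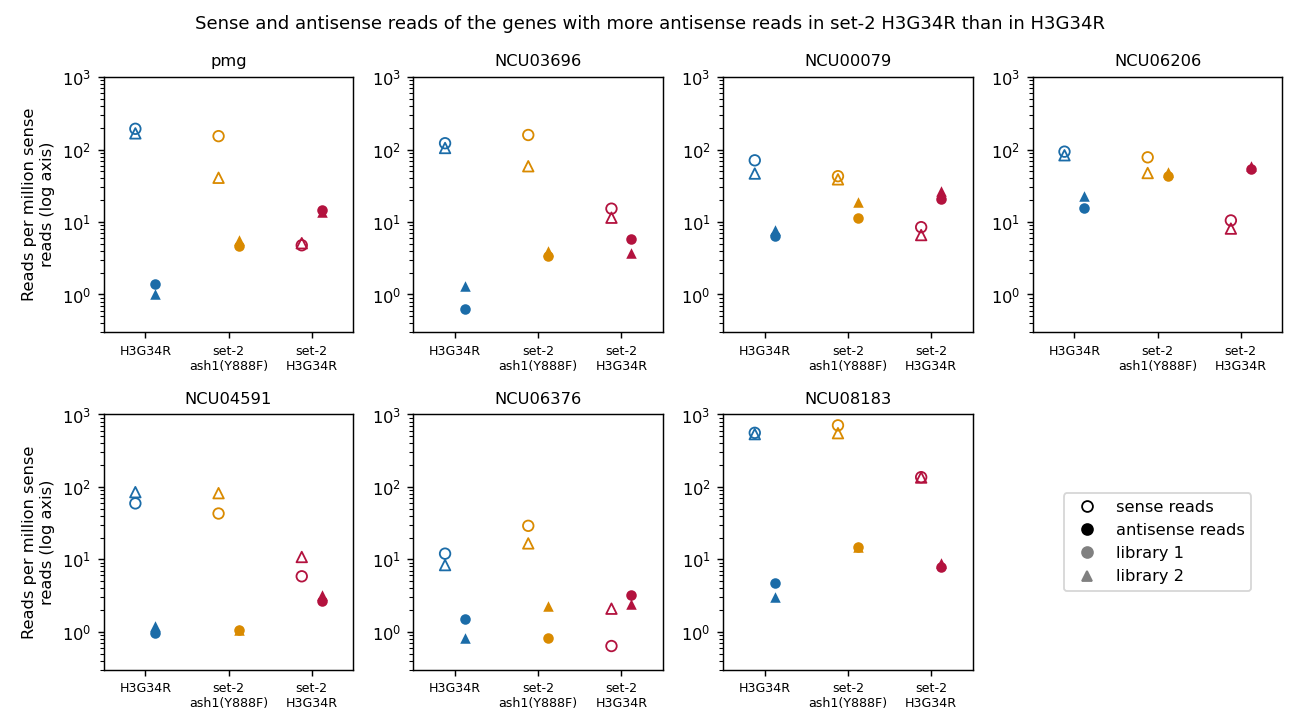
Sense (open) and antisense (filled) reads per 1e6 sense reads of the library, log axis, for the 7 genes with more antisense reads in set-2 H3G34R than in H3G34R; circles and triangles are the 2 libraries of a genotype. In pmg, NCU00079, NCU06206 and NCU06376 the filled points lie above the open ones in set-2 H3G34R. NCU00079 and NCU06376 overlap another gene, whose reads may be among their antisense reads.

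The genes were spread over all 7 chromosomes, with 10 of 30 on chromosome V. That is 33.3% of them, where 16.2% of counted genes lie on that chromosome; of the genes low only in H3G34R it holds 10.1%, and of those low only in set-2 ash1(Y888F) 14.7%. In the gene order of assembly NC12, NCU09497 and NCU09498 were the only members next to each other, or 6.67% of the 30, and the share was 20.8% and 23.5% among the genes that the rule finds for the other genotypes. Among the outermost 50 genes of a chromosome end lay 6 of 30, or 20% beside 7.19% of all genes. Within the outermost 100 the count stayed at 6, beside 14.4% of all genes. These were NCU07149 and NCU08863 on chromosome V, NCU09497 and NCU09498 on chromosome III, NCU09914 on chromosome I and NCU07116 on chromosome VI. The share within the outermost 50 was 8.72% for genes low only in H3G34R and 29.4% for those low only in set-2 ash1(Y888F).

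Flanking genes were examined after the levels had been seen. Of 58 genes next to a member 50 were tested and 11 of these passed as lower than both other genotypes in the N6777 libraries, where 12.2% of all genes were. NCU04302 alone was higher than both (11.8% of genes). NCU00265, beside NCU16673, had 205.3 and 213.6 CPM in H3G34R, 147 and 35 CPM in set-2 ash1(Y888F) and 10.6 and 17.4 CPM in the low pair. NCU04543, beside NCU04542, had mean levels of 216, 183.5 and 79.7 CPM, and NCU09499, beside NCU09498, 84.7, 51 and 23.4 CPM. In these 3 the flanking gene was lowest in the same libraries as the member, by a smaller factor than NCU09498 and NCU04542 and a larger one than NCU16673. ecd-1 was also lower than in both, but it overlaps NCU06301.

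None of the 30 genes is on any of 11 lists of genes with known roles in this fungus, which together hold 257 of the 9730 genes. The lists were matched by symbol or synonym, and only 1 of the 30 has a symbol, so nothing is read from this. On those lists 249 genes were tested; against H3G34R 74 were higher in the libraries labelled set-2 H3G34R (30.8% of all genes) and 101 lower (30.9%), and against set-2 ash1(Y888F) 47 were higher (18.3%) and 83 lower (19.9%). Some lists leaned upwards against H3G34R, such as carbohydrate-active enzymes with 31 higher and 21 lower of 72, and conidiation with 8 and 3 of 15. The list of amino acid synthesis genes was singled out since pmg carries amino acids into the cell. A link between that list and pmg was not tested. Of the 60 genes on that list 38 were lower and 4 higher than in H3G34R, with a median log2 fold change of -0.58. Compared with set-2 ash1(Y888F), 48 were lower and 0 higher (0 at an unadjusted p under 0.05, edgeR, and 0 by DESeq2), with a median of -0.80. Without the second N6777 library 29 were lower than in set-2 ash1(Y888F).

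cpc-1, which encodes the transcription factor of general amino acid control, had 1124 and 1004 CPM in H3G34R, 1712 and 1502 CPM in set-2 ash1(Y888F) and 1483 and 1471 CPM in the libraries labelled set-2 H3G34R. It was 0.53 higher there than in H3G34R on the log2 scale (SE 0.129, adjusted p = 0.0106, edgeR). Leaving out N5248 or either N6777 library took that adjusted p to between 0.0630 and 0.0837. Its log2 difference against set-2 ash1(Y888F) was -0.36 (adjusted p = 0.0664). Against H3G34R cpc-1 and the median of the synthesis list had opposite signs. That list holds cpc-1 itself, and 2 of its genes are also on the list of nitrogen, phosphorus and sulphur supply.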

How the data were processed

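Per the submitters' processing notes the authors aligned reads with STAR 2.6.0 and deposited raw read counts per gene for each library, with 1 column for both strands and 1 for each strand; the strand column with more reads in genes was taken as sense. Neither genome build nor annotation is given in the sources used here. The authors also deposited, per genotype, a DESeq2 1.18.1 comparison with wild type without a header; by its values it holds a mean normalised signal, a log2 fold change, its SE, a Wald statistic (a score) and raw and adjusted p-values, all made by the authors. The wild-type libraries were not used here.

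CPM is sense reads over the library's sense reads in genes, times 1e6, leaving out the 4 lines of unassigned reads. Over 6535 genes the median log2 difference of set-2 ash1(Y888F) over H3G34R was -0.24 in CPM and 0.05 with TMM scaling. CPM values of set-2 ash1(Y888F) thus read somewhat low beside those of H3G34R. Sense and antisense counts were tested with edgeR 4.0.16 (R 4.3.3; glmQLFit and glmQLFTest, TMM, filterByExpr), all 6 libraries in 1 fit, two-sided, Benjamini-Hochberg at 0.05; antisense counts used the sense library sizes. This fit shares its estimate of spread between the genotypes. Libraries of set-2 ash1(Y888F) lay farther apart, with a median absolute log2 difference of 0.21 over genes, against 0.13 in H3G34R and 0.14 in set-2 H3G34R. Tests with set-2 ash1(Y888F) may thus understate its spread. DESeq2 1.42.0 was an alternative. Scripts were tested on simulated data. Libraries are the replicates: 2 strains in each of 2 genotypes, and 2 libraries of a single strain for set-2 H3G34R with nothing stated on separate cultures, so p-values reflect no more than how these libraries vary, which may be technical variation.

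Symbols and gene order were taken from a gene table of assembly NC12, which matched 9729 of 9730 identifiers; no coordinates are printed, sequences were not used here, and a planned promoter motif search was not run. The members and the lists were chosen with earlier results of these data known. Members named are those with the largest ratio, a symbol, the values nearest the threshold, the largest called differences or the highest levels; flanking genes, the check of wild-type levels and further examples were added after values were seen. Alternatives were another test, scaling, filter, threshold, strand column and leaving out each library.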

Additional observations from a re-analysis of the deposited data

How the results depend on the processing

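No paired analysis was possible because the replicate numbers come from strain names or library numbers that no label shares between genotypes. The rule finds 106 genes at a ratio of 2 and 9 at a ratio of 4, and 30 to 62 when a library is left out. Leaving out a library can only keep or add genes, since the rule sets a lowest value against a highest one. With TMM-scaled levels the rule finds 33, of which 24 are among the 30, and with both strands 21. Between set-2 ash1(Y888F) and H3G34R, 1 member was higher at a minimum of 1.5-fold, and leaving out a library gave 1 to 8 higher and 2 to 10 lower.

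On antisense reads, taking the gene's own sense reads as the base gave 13 higher and 0 lower than in H3G34R, and 12 higher and 2 lower than in set-2 ash1(Y888F). This scale turned the sign of NCU04697 (1.58 and 0.90), NCU00868 (1.11 and 0.12), NCU04542 (1.80), NCU16673 (0.66) and, against set-2 ash1(Y888F), NCU08183 (1.39); since the rule chose genes with low sense reads in set-2 H3G34R, it raises these values by construction. DESeq2 or no filter left 1 higher than in set-2 ash1(Y888F). Leaving out a library gave 5 to 7 higher and 4 to 7 lower than in H3G34R, and 1 to 2 higher and 7 to 11 lower than in set-2 ash1(Y888F). For set-2 ash1(Y888F) against H3G34R, antisense reads of 6 members were higher with DESeq2, 6 with antisense TMM (which also called 1 lower) and 8 without a filter, and 7 to 11 when a library was left out; the cause was not tested.

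At 2-fold or more, 3 members were lower in the authors' H3G34R table and 1 in their set-2 ash1(Y888F) table, where an adjusted p under 0.01 also left 1. Of the 106 genes at a ratio of 2, 6 lay next to another and 12 among the outermost 50, where 7.19% of all genes lie. Of the 9 genes at a ratio of 4, 3 lay among the outermost 50. Of members with more antisense than sense reads, 3 of 5 overlap no other gene. Leaving out a library gave 20 to 61 list genes higher and 43 to 90 lower than in set-2 ash1(Y888F), and 29 to 52 amino acid synthesis genes lower; the low ends came without the second N6777 library. The call of cpc-1 against set-2 ash1(Y888F) was made by DESeq2 (adjusted p = 0.0291) and without N6267 (adjusted p = 0.0139). Calls of single members kept their direction apart from those named. With 3 reads as a floor, levels under 0.305 to 0.399 CPM could not be read, and this floor covers counting error only.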
